A study of Mus musculus with 37 samples.

Results

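The Hox cluster genes were followed across 9 components of the developing mouse kidney. A gene was taken as a member when its symbol was Hox, a cluster letter from a to d and only a number. Of 39 such genes in the RefSeq mouse annotation, 33 had at least 1 probe set of their own on the array, out of 18193 genes with a probe set of a single gene. These were 9 genes of the HoxA cluster on chromosome 6, 9 of HoxB on chromosome 11, 7 of HoxC on chromosome 15 and 8 of HoxD on chromosome 2. The remaining genes of the clusters were not analysed here. A filter on low signal, which asked for a value above the pooled median of all probe sets in at least 2 arrays, was passed by 28 of the 33 members and by 15709 genes in all. The members without a test were Hoxa13, Hoxb7, Hoxb13, Hoxc13 and Hoxd12.

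Hox genes encode homeodomain transcription factors that give cells a position along the body axis. Within a cluster they lie in order of paralog number, and genes of low number are in general switched on earlier and further forward than genes of high number, so that genes of high number are called posterior. In the kidney, the genes of paralog group 11 act in the metanephric mesenchyme with Eya1 and Six2, where they are needed for Gdnf and for outgrowth of the ureteric bud, and Hox10 genes act in the stroma. A Hoxb7 promoter is widely used to drive transgenes in the ureteric bud and its branches.

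The arrays came from wild-type CD-1 mice, an outbred strain, with sex given as unknown and no allele or agent in any group. At E15.5 there were 4 arrays of medullary interstitium (the stroma between the tubules of the inner kidney), 3 of ureteric tip (the growing ends of the collecting system), 3 of medullary collecting duct, 4 of renal corpuscle (the filter with its podocytes), 2 of proximal tubule and 4 of S-shaped body (the segmented nephron precursor). At E12.5 there were 5 arrays of renal vesicle, a small epithelial sphere from which a nephron grows. At E11.5 there were 4 of ureteric bud, the epithelial outgrowth that forms the collecting system, and 8 of metanephric mesenchyme, which forms the nephrons and much of the stroma. Each array held a pool, per the labels about 50 sections from 5 kidneys, so that single animals were not measured. The protocol names laser capture for all samples, but the titles of all 4 bud arrays and of 4 mesenchyme arrays (replicates 5 to 8) name dissection or collagenase, and those of 3 mesenchyme arrays (1, 3 and 4) name laser capture.

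Promoters were available for 19 of the 33 members, taken from RefSeq (build GRCm38.p6, 250 bases before to 50 after the start). The 4 below are shown because they belong to genes at opposite ends of the contrast between bud and mesenchyme: Hoxa9 and Hoxd10 were lower in the bud, Hoxd8 and Hoxd1 were higher, and Hoxd10 and Hoxd8 lie in 1 cluster. They span chr6:52227321-52227620 (minus strand), chr2:74691641-74691940 (plus strand), chr2:74704365-74704664 (plus strand) and chr2:74762730-74763029 (plus strand). Capitals mark AGGTCA, the hexamer bound by retinoic acid receptors and other nuclear receptors, or its reverse complement TGACCT.
Hoxa9: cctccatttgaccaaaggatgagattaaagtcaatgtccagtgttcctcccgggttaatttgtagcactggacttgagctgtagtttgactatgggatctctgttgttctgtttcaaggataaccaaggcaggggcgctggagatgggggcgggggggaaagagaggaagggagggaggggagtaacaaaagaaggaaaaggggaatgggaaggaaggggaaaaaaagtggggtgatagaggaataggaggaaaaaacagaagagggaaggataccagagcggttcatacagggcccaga
Hoxd10: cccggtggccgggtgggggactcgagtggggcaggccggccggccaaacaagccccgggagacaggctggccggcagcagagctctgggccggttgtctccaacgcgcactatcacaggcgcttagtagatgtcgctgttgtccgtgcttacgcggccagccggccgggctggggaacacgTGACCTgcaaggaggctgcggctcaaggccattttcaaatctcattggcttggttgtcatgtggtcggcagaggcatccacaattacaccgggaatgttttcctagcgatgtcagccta
Hoxd8: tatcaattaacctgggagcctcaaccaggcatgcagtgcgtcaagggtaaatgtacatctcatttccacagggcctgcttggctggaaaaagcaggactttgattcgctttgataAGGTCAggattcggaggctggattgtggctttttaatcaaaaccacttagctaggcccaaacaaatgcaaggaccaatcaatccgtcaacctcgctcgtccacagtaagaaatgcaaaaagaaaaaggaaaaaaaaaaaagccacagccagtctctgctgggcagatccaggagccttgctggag
Hoxd1: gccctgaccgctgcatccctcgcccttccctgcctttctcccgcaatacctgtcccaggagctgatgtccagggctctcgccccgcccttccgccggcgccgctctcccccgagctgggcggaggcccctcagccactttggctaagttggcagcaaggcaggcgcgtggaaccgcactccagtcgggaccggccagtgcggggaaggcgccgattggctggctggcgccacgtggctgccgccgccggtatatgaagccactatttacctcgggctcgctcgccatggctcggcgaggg
The hexamer was found in 6 of the 19 members' promoters (Hoxa5, Hoxb4, Hoxc4, Hoxd3, Hoxd8 and Hoxd10) and in 16.3% of 32851 mouse promoters. Hoxd10 and Hoxd8 both hold it, although they differed in opposite directions. The Cdx motif TTTATG was in Hoxa7, Hoxd3 and Hoxd11 (11.9% of all promoters), the Meis motif TGACAG in Hoxa2 and Hoxa3 (19.2%), the Pbx-Hox motif TGATTNAT in Hoxa2 and Hoxd11 (3.22%) and the TATA box TATAAA in Hoxa10 and Hoxd13 (13.6%), each searched on both strands. Some motifs share letters: TGACCT with TGACAG, and TTTATG with the reverse complement of TATAAA. The G and C content of the members' promoters ranged from 45.7% to 81.0% with a median of 58.0%, against 52.7% for all promoters.

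All levels below are log2 of the deposited signal plus an offset, after quantile normalization, and differences are on that scale, so 1 unit is a doubling of signal plus offset. Levels of different genes were not compared, since probe sets differ in brightness. A gene is said to have risen or fallen when limma gave an adjusted p (Benjamini-Hochberg over all 15709 genes) under 0.05 and a difference of at least 1. The number of arrays limits the precision, and the p-values measure the spread between pooled samples. The components were checked with marker genes, summed as signal over each list. Podocyte markers (4 of 6 measured) gave 138561 to 239589 in renal corpuscle replicates 1 to 3 but 17352 in replicate 4, and 14910 to 29703 in S-shaped body replicates 1, 2 and 4 but 192753 in replicate 3. Renal vesicle markers (6 of 6 measured), which S-shaped bodies share, gave 68094 in corpuscle replicate 4 (8662 to 14360 in the others) and 12570 in S-shaped body replicate 3 (68234 to 78054 in the others). S-shaped body replicate 3 was also the highest of its group for proximal tubule markers (75204, others 9741 to 13262), interstitium markers (162010, others 36931 to 47748) and macrophage markers (21125, others 940 to 3427). These 2 arrays stand apart from their groups. Member calls that use them are given without them too, while component means, variance shares and correlations include them. Proximal tubule markers reached 118498 and 215636 in the proximal tubule. Ureteric epithelium markers (8 of 9 measured) gave 216890 to 278869 in the tip, 162316 to 274418 in the collecting duct and 229268 to 290984 in the bud.

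Across the 9 components, 24 of the 28 tested members differed by limma's F test at an adjusted p under 0.05, against 49.9% of all genes tested. The 24 include Hoxb1 and Hoxd13, both highest in the mesenchyme. Hoxb1 passed the filter through mesenchyme and vesicle arrays alone and Hoxd13 mostly through mesenchyme arrays. Their differing was thus in part built into their passing. Without the 2 arrays that stand apart, 26 differed. The exceptions with all arrays were Hoxa7 (adjusted p = 0.062), Hoxb2 (0.0729), Hoxb3 (0.15) and Hoxc6 (0.327). The component means spread least for Hoxc6, over 1.18, and most for Hoxa10, over 5.92, Hoxd10, over 5.69, and Hoxd13, over 5.50. For 11 members the highest mean was in the metanephric mesenchyme and for 6 in the ureteric bud, while the ureteric bud also held the lowest mean of 12 members. The map of levels by cluster shows these 12 to be Hoxa5, Hoxa7 and Hoxa9 to Hoxa11, Hoxc5, Hoxc6 and Hoxc8 to Hoxc10, and Hoxd10 and Hoxd11, with no gene of HoxB. The share of a member's variance that lay between components was 93.4% for Hoxa9, 91.2% for Hoxa10 and 87.5% for Hoxd10, and 30.7% for Hoxc6.

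**Figure D1:**
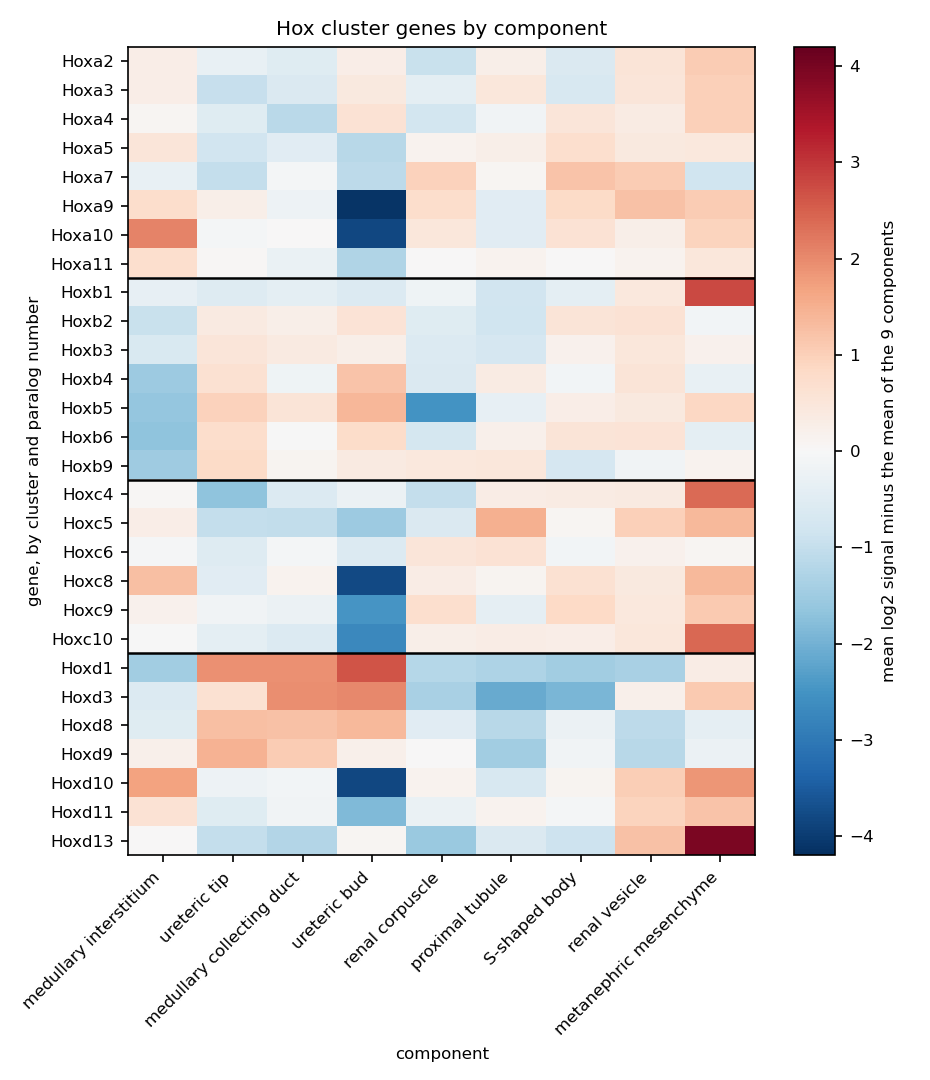
Mean log2 signal of the 28 tested Hox genes (rows, by cluster and paralog number, with lines between clusters) in the 9 components (columns), each minus the gene's mean over the components. The ureteric bud is at -4.12 for Hoxa9 and -3.83 for Hoxd10, and the metanephric mesenchyme at 3.95 for Hoxd13 and 2.78 for Hoxb1. Hoxd13 and Hoxb1 passed the filter mostly through mesenchyme arrays.

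The ureteric bud was set against the metanephric mesenchyme to see which Hox genes differ between the tissues of the earliest kidney. Most tested posterior genes of HoxA, HoxC and HoxD fell in the bud, while Hoxd1 and Hoxd8 rose, and most of HoxB was not called. By paralog number, 8 of 10 tested members of 9 to 13 fell, 1 of 5 of 6 to 8 and 4 of 13 of 1 to 5. In HoxC 5 of 6 fell, Hoxc4 and Hoxc5 among them. Among all genes 4.07% fell. Hoxd10, a posterior gene that patterns the limb and the lumbar spinal cord, had 7.82, 7.77, 9.21 and 8.27 in the bud arrays, against 13.54 to 14.75 (median 13.73) in the mesenchyme. Every bud array lay far under the lowest mesenchyme array. Hoxd10 fell by 5.69 (SE 0.42, adjusted p = 7.82e-12, n = 4 and 8, limma). Hoxa9, a neighbour of Hoxa10 that is also known for its part in leukaemia, had 9.59, 9.94, 10.66 and 9.1 in the bud, against 14.6 to 15.49 (median 14.98) in the mesenchyme, and fell by 5.18 (SE 0.28, adjusted p = 2.4e-15, limma).

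Hoxa10, a regulator of the uterus and of the renal stroma, had 7.67, 7.48, 8.85 and 7.06 in the bud, against 11.95 to 12.88 (median 12.58) in the mesenchyme, and fell by 4.76 (SE 0.35). Hoxc8 had 5.55, 6.12, 6.59 and 7.25 in the bud, against 10.84 to 12.64 (median 11.29) in the mesenchyme, and fell by 5.17 (SE 0.60). Bud replicate 3 was the highest bud array for Hoxa9, Hoxa10 and Hoxd10 but not for Hoxc8. For Hoxc10 the bud arrays had 8.1, 8.54, 8.43 and 7.78, against 12.29 to 14.52 (median 13.38) in the mesenchyme, and fell by 5.14 (SE 0.45). The mesenchyme arrays split by the way of collection in the titles: Hoxc10 was at 14.1 to 14.52 in the 4 arrays titled dissection or collagenase, and at 12.34 to 12.67 in the 3 titled laser capture. Hoxa5, Hoxa7, Hoxa10, Hoxd3, Hoxd8 and Hoxd10 also did not overlap between these arrays, so that 7 of 28 members (25.0%) split, against 21.3% of all genes. Ureteric epithelium markers summed to 3623 to 6113 in the 4 titled dissection or collagenase and 9472 to 42723 in the 3 of laser capture, and nephron progenitor markers to 47218 to 59573 and 16390 to 42244 in the same order. Their part in the split was not tested.

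Of the 8 tested genes of paralogs 9 to 11 in HoxA, HoxC and HoxD, 7 fell in the bud. Hoxa11 and Hoxd11, the tested genes of the paralog group needed for bud outgrowth, fell by 1.73 (SE 0.32) and 3.07 (SE 0.37). Hoxc9 fell by 3.58 (SE 0.50). Hoxd9 stood apart from its neighbour Hoxd10: it had 11.97, 12.69, 12.2 and 12.69 in the bud, against 11.15 to 12.57 (median 11.96) in the mesenchyme, and the groups overlapped (difference 0.46, adjusted p = 0.77, limma). The median difference over these 8 genes was -4.17, against 0.02 over all genes tested.

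In the other direction, Hoxd8 had 13.81, 14.03, 14.44 and 14.14 in the bud, against 11.88 to 12.82 (median 12.38) in the mesenchyme, and rose by 1.75 (SE 0.37, adjusted p = 0.00118, limma). Hoxd1, a gene of low paralog number at the other end of HoxD, had 10.87, 10.84, 11.69 and 10.87 in the bud, against 7.69 to 9.88 (median 8.57) in the mesenchyme, and rose by 2.34 (SE 0.66, adjusted p = 0.017, limma). Its call was lost without bud replicate 3 (difference 2.14, adjusted p = 0.0789, limma). Within HoxD the difference was positive at paralogs 1, 3, 8 and 9 and negative at 10, 11 and 13.

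In HoxB, 6 of the 7 tested genes had a positive difference and none of these was called. The largest was Hoxb4, with 12.19, 12.28, 12.3 and 12.35 in the bud against 10.05 to 11.38 (median 10.99) in the mesenchyme (difference 1.505, adjusted p = 0.0532, limma). The groups do not overlap, and the value missed the threshold. It passed with array weights (1.65) and with arrays scaled to a common median (1.98). Hoxb1, best known for specifying a hindbrain segment, went the other way: it had 6.47 to 6.88 in the bud, against 9.17 to 11.02 (median 9.94) in the mesenchyme, and fell by 3.37 (SE 0.56, adjusted p = 4.43e-05, limma). Hoxb1 passed the filter through 10 arrays alone, the 8 of mesenchyme and vesicle replicates 2 and 4, so a difference against the mesenchyme was built into its passing.

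All bud arrays of Hoxb1, Hoxc8, Hoxc9 and Hoxd11 lay under the filter's threshold of 7.89. The files used here hold no detection call, so it is not known whether these genes were above background in the bud, and the sizes of their falls depend on the offset. With an offset of 16 or 100 in place of 34.62, Hoxc8 was at -5.59 or -4.33, Hoxc9 at -3.97 or -2.77, Hoxd11 at -3.53 or -2.26 and Hoxb1 at -3.64 or -2.74, and all 4 stayed called. For Hoxa10, Hoxa11 and Hoxd13, bud replicates 1, 2 and 4 lay under the threshold too, as did replicates 1 and 2 for Hoxd10 and replicate 4 for Hoxc10. The sizes of their differences from the bud also depend on the offset.

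The remaining genes that fell were Hoxa5 (-1.62), Hoxc4 (-2.62), Hoxc5 (-2.90) and Hoxd13 (-3.85, in a mesenchyme that ranged from 9.13 to 13.41). Hoxd13 was above the filter's threshold in 13 arrays, which include all 8 of mesenchyme, so its passing rested mostly on the group where it is high. In all, 2 members rose and 13 fell. Among all genes, 4.08% rose and 4.07% fell. The call for Hoxc5 was lost without bud replicate 4 (difference -2.69, adjusted p = 0.0557, limma). Against only the 3 mesenchyme arrays titled laser capture, a comparison added after the data were seen, Hoxa5 (-1.05), Hoxc4 (-2.63), Hoxc5 (-2.81) and Hoxd1 (2.45) were no longer called. Against only the 4 mesenchyme arrays titled dissection or collagenase, as all 4 bud arrays are, 14 of the 15 calls held and Hoxd1 was not called (2.44, adjusted p = 0.0571, limma).

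The titles carry dates whose meaning the labels do not give. Only 1 bud array (replicate 3) and 1 mesenchyme array (replicate 6) share a date, and with the date as a fixed term Hoxa9 was at -4.83, Hoxd10 at -5.50, Hoxc10 at -5.80, Hoxd8 at 1.80 and Hoxd1 at 1.81, of which Hoxa9 alone was called. Interstitium markers (7 of 7 measured), which include stromal Foxd1, Pdgfra and Col3a1, summed to 1944 to 4836 in the bud and 78453 to 130017 in the mesenchyme, and ureteric epithelium markers to 229268 to 290984 in the bud and 3623 to 58677 in the mesenchyme. In bulk samples, fewer cells of a type and less RNA per cell cannot be told apart.

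**Figure D2:**
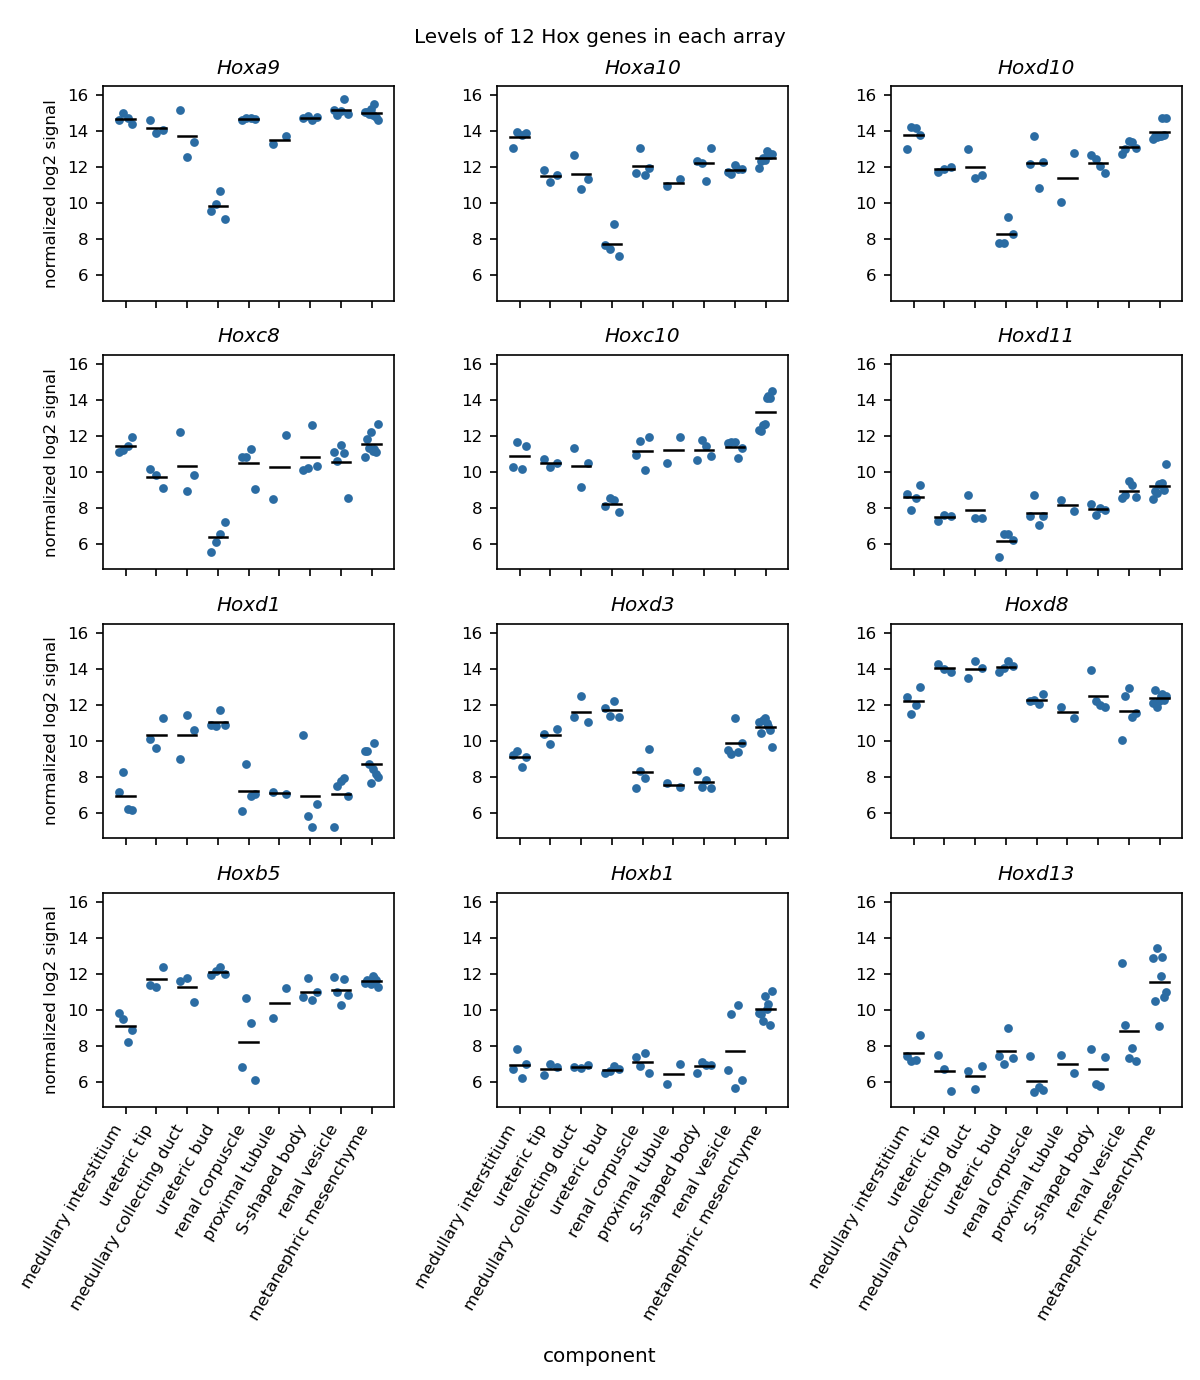
Normalized log2 signal (vertical axis) of 12 Hox genes in each of the 37 arrays (points) by component (horizontal axis), with the component mean as a line. For Hoxa9, Hoxa10, Hoxd10 and Hoxc8 the 4 ureteric bud arrays lie under every array of the other components, and Hoxd8 has its highest means in the tip, collecting duct and bud.

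The tip and the collecting duct of E15.5 descend from the bud, and each was compared with it. Hoxa9, Hoxa10, Hoxc8, Hoxc9, Hoxc10 and Hoxd10, which were low in the bud, rose in both, while Hoxd1, Hoxd8 and HoxB were not called. Hoxd13, which had also fallen in the bud against the mesenchyme, was not called. It averaged 6.59 ± 1.01 in the tip and 6.36 ± 0.66 in the duct, against 7.69 ± 0.88 in the bud (SD, n = 3, 3 and 4). Hoxd10 had 11.71, 11.88 and 12.02 in the tip and 13.01, 11.41 and 11.55 in the collecting duct, against 7.82, 7.77, 9.21 and 8.27 in the bud. All 6 arrays of E15.5 lay above all 4 bud arrays. It rose by 3.60 (SE 0.53, adjusted p = 4.03e-05, limma) in the tip and by 3.72 (SE 0.53, adjusted p = 1.26e-05, limma) in the duct.

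Hoxa9 had 14.59, 13.91 and 14.05 in the tip and 15.19, 12.59 and 13.38 in the duct, against 9.1 to 10.66 in the bud, and rose by 4.36 (SE 0.35) and 3.90 (SE 0.35). Hoxa10 had 11.86, 11.19 and 11.54 in the tip and 12.65, 10.8 and 11.37 in the duct, against 7.06 to 8.85 in the bud, and rose by 3.77 (SE 0.43) and 3.84 (SE 0.43). Collecting duct replicate 1 was the highest duct array for all 3 genes. For Hoxc8 the tip arrays had 10.16, 9.84 and 9.12 and the duct arrays 12.21, 8.95 and 9.85, against 5.55 to 7.25 in the bud, with rises of 3.33 (SE 0.75) and 3.96 (SE 0.75).

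Hoxc9 rose by 2.34 in the tip and 2.26 in the duct, and Hoxc10 by 2.29 and 2.13. Hoxa11 just passed the threshold in the tip (1.30, SE 0.40, adjusted p = 0.04998, limma) and was not called in the duct (0.97, adjusted p = 0.112, limma). Hoxd11 rose in the duct (1.73, SE 0.46, adjusted p = 0.0115, limma) and was not called in the tip (1.35, adjusted p = 0.0864, limma). Its tip arrays lay under the filter's threshold as in the bud. Duct replicates 2 (7.46) and 3 (7.43) did too, and only duct replicate 1 (8.75) lay above it. The difference between tip and duct was not called for either gene.

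Each comparison therefore had 7 members that rose and none that fell. The shares of all genes that rose were 2.04% in the tip, of 4.25% called in either direction, and 4.12% in the duct, of 10.2% called. Over paralogs 9 to 11 of HoxA, HoxC and HoxD the median difference was 2.31 in the tip and 2.19 in the duct, against -0.22 and -0.19 over all genes. These comparisons share the 4 bud arrays with each other and with the bud against the mesenchyme, so their values are not independent. Scaled to a common median in place of quantile normalization, the median over all genes moved to -0.88 in the tip and -0.85 in the duct, and the members split into 7 that rose and 2 that fell in the tip and 7 that rose and 5 that fell in the duct.

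**Figure D3:**
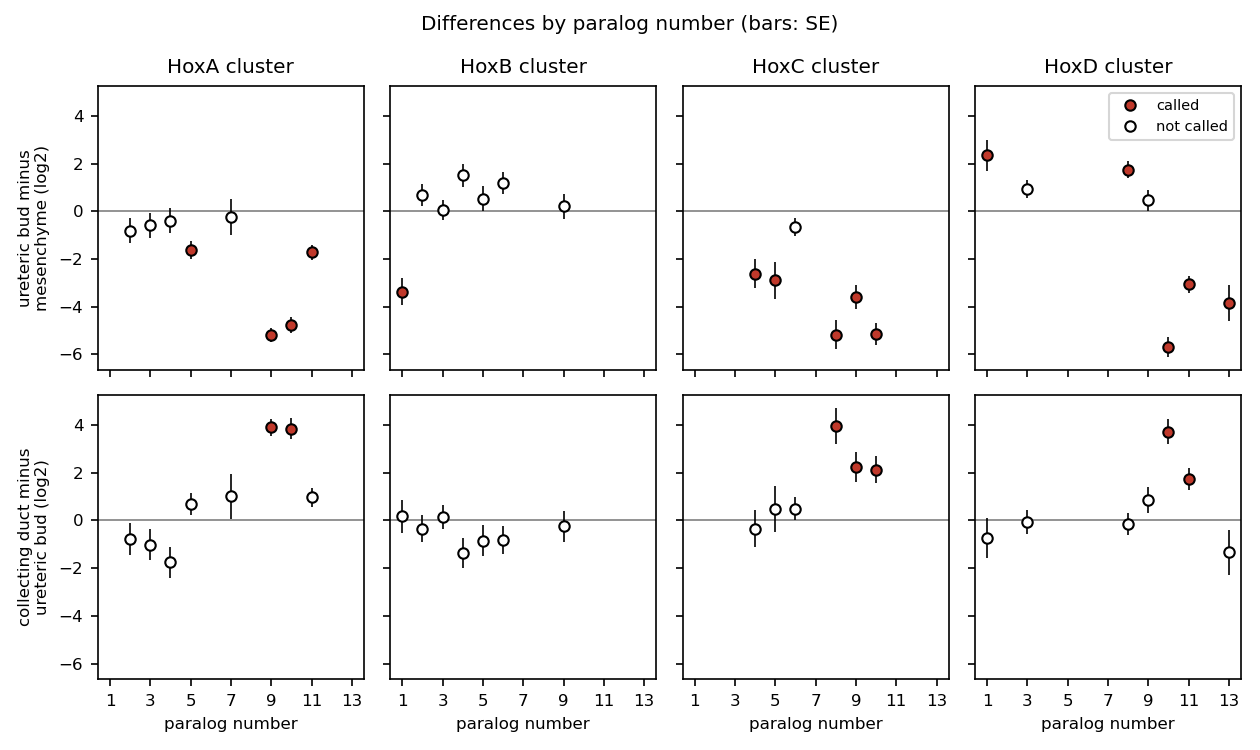
Difference in log2 signal (vertical axis, bars are SE) by paralog number (horizontal axis) in each cluster, for the ureteric bud minus the metanephric mesenchyme (upper row) and the medullary collecting duct minus the ureteric bud (lower row). Filled points were called; Hoxa9, Hoxa10, Hoxc8 and Hoxd10 lie between -5.69 and -4.76 above and between 3.72 and 3.96 below.

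Markers of other cells moved with these rises. The interstitium markers summed to 27102 to 103300 in the tip and 40204 to 109681 in the collecting duct, against 1944 to 4836 in the bud. Col3a1, a fibrillar collagen of stroma, had 14.19 to 15.99 in the tip and 14.85 to 15.98 in the duct, against 9.43 to 11.14 in the bud. Nephron progenitor markers (6 of 6 measured, Eya1 among them) summed to 8975 to 14192 in the tip and 3993 to 17334 in the duct, against 1954 to 2850 in the bud. Within this list only Eya1 and Crym lay above all bud arrays in every tip and duct array. Six2, Cited1, Meox1 and Osr1 overlapped with the bud in both. Among the duct arrays, replicate 1 had the highest interstitium sum, 109681, and the highest Hoxa9, Hoxa10 and Hoxd10, and replicate 2 the lowest sum, 40204, and the lowest of each gene. In the bud, replicate 3 had the highest sum, 4836, and the highest of each. The tip did not show this for all 3 genes. Its replicate 1 had the highest Col3a1, 15.99, Hoxa9, 14.59, and Hoxa10, 11.86, but the lowest Hoxd10, 11.71. The part of these cells in the result was not tested.

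**Figure D4:**
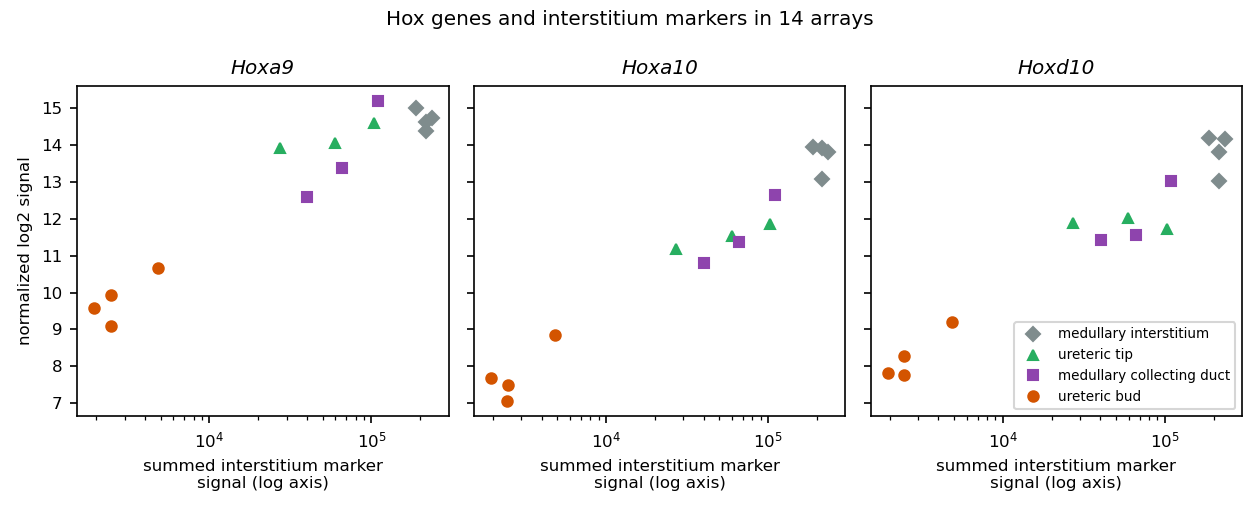
Normalized log2 signal of Hoxa9, Hoxa10 and Hoxd10 (vertical axis) against the summed signal of 7 interstitium markers (horizontal log axis) in the 14 arrays of medullary interstitium, ureteric tip, medullary collecting duct and ureteric bud. The bud arrays lie at sums of 1944 to 4836 and at the lowest levels, the tip and duct arrays between 27102 and 109681, and the interstitium arrays above 188054.

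No bud array shares a title date with a tip or duct array, so there is no value within a date. A fit with the date as a term links them only through the 2 proximal tubule arrays. Tubule replicate 1 shares a title date with bud replicate 3, and tubule replicate 2 with tip replicate 3 and duct replicate 2. These tubule arrays themselves differed in Hoxd10, at 10.04 and 12.8. The fit left no member called, with Hoxa9 at 2.82 in the tip and 2.01 in the duct, and Hoxa10 at 2.01 and 2.11. Hoxd10 was at -0.32 and -0.12, so its sign turned. The bud and the later components also differ in age and, per the titles, in the way of collection, and these cannot be told apart from the component. Without collecting duct replicate 1, 4 members were called in the duct, since Hoxc9 (1.74), Hoxc10 (1.63) and Hoxd11 (1.29) lost their calls. Without ureteric tip replicate 1, 4 were called in the tip, since Hoxa11 (1.29), Hoxc9 (2.37) and Hoxc10 (2.19) lost their calls. Hoxa11 lost its call when any single tip or bud array was left out, and Hoxc9 did without tip replicate 1 or 3 or bud replicate 1, 2 or 4.

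Between the tip and the duct themselves no member was called by limma, against 0.356% of all genes. Only Hoxd3 had an unadjusted p under 0.05 (10.4, 9.85 and 10.69 in the tip, against 11.35, 12.49 and 11.04 in the duct, adjusted p = 0.593, limma). With array weights, Hoxd3 was called (-1.499, adjusted p = 0.00497, limma).

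The medullary interstitium was set against the collecting duct that it surrounds. Hoxa10 and Hoxd10 rose in the interstitium, and Hoxd1, Hoxd3, Hoxd8 and Hoxb5 fell. Hoxa10 had 13.08, 13.95, 13.8 and 13.92 in the interstitium, against 12.65, 10.8 and 11.37 in the duct, and rose by 2.08 (SE 0.43, adjusted p = 0.00319, limma). Hoxd10 had 13.01, 14.2, 14.15 and 13.8 in the interstitium, against 13.01, 11.41 and 11.55 in the duct, and rose by 1.80 (SE 0.53, adjusted p = 0.0407, limma). Its lowest interstitium array and its highest duct array were level to 2 decimals.

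Hoxd3 had 9.24, 9.42, 8.54 and 9.13 in the interstitium, against 11.35, 12.49 and 11.04 in the duct, and fell by 2.55 (SE 0.49, adjusted p = 0.00149, limma). Hoxd1 had 7.18, 8.26, 6.23 and 6.17 in the interstitium, against 8.98, 11.44 and 10.58 in the duct, and fell by 3.37 (SE 0.82). Hoxd8 averaged 12.23 ± 0.64 in the interstitium (SD, n = 4), against 13.97 ± 0.48 in the duct (SD, n = 3), and fell by 1.75 (SE 0.46). Hoxb5, known for its part in the enteric nervous system, had 9.81, 9.49, 8.2 and 8.89 in the interstitium, against 11.61, 11.78 and 10.42 in the duct, and fell by 2.17 (SE 0.64). No group overlapped for these 4 genes.

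In all 2 members rose and 4 fell, against 2.01% and 2.46% of all genes. With arrays scaled to a common median the split was 3 that rose and 2 that fell. Calls here were fragile: without collecting duct replicate 2, only Hoxd3 stayed called, and 3 members were called without duct replicate 3, interstitium replicate 2 or interstitium replicate 3. With the date as a fixed term 1 member was called, Hoxd3 at -3.09. Interstitium markers summed to 188054 to 235844 in the interstitium and 40204 to 109681 in the duct. Ureteric epithelium markers summed to 106512 in interstitium replicate 1 and 18395 to 44578 in the others, against 162316 to 274418 in the duct. That replicate had the lowest Hoxa10 and Hoxd10 and the highest Hoxb5 of the interstitium. It was not the highest for Hoxd1, Hoxd3 or Hoxd8, the other genes that fell. Hoxd1 and Hoxd3 were highest in interstitium replicate 2, and Hoxd8 in interstitium replicate 4. The part of such cells was not tested.

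Compared with the mesenchyme of E11.5, the medullary interstitium had 1 member higher, Hoxa10, and 7 lower, against 4.67% and 6.82% of all genes. Hoxa10 had 13.08, 13.95, 13.8 and 13.92 in the interstitium, against 11.95 to 12.88 (median 12.58) in the mesenchyme, and rose by 1.16 (SE 0.35, adjusted p = 0.0223, limma). The largest falls were those of Hoxd13 (-3.95, SE 0.75) and Hoxb1 (-3.11, SE 0.56). Hoxb1 passed the filter through mesenchyme and vesicle arrays alone, so a difference against the mesenchyme was built into its passing. Its interstitium arrays, at 6.21 to 7.84, all lay under the filter's threshold. Hoxd13, the most posterior HoxD gene and a regulator of digits and of the urogenital tract, had 7.46, 7.14, 7.19 and 8.61 in the interstitium, all under the lowest mesenchyme array at 9.13. Of these only the last lay above the filter's threshold, and Hoxd13 passed the filter mostly through mesenchyme arrays. The sizes of both falls depend on the offset.

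The other falls were those of Hoxb5 (-2.49), Hoxc10 (-2.46), Hoxc4 (-2.33), Hoxd3 (-1.67) and Hoxb9 (-1.67, in an interstitium that ranged from 5.77 to 9.66). Scaled to a common median, no member rose, 11 fell and Hoxa10 was at 0.63, while the median over all genes moved to -0.40, against -0.11 after quantile normalization. Against the 3 mesenchyme arrays titled laser capture, 3 members were called. Without interstitium replicate 3, 5 were called, since Hoxa10 (1.12), Hoxb9 (-1.01) and Hoxc4 (-2.12) lost their calls. Hoxa10 lost its call without interstitium replicate 2, 3 or 4. No value within a date was available; the fit with the date as a term called none and put Hoxa10 at -0.26.

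The renal vesicle, the first epithelial derivative of the mesenchyme, had no member higher than the mesenchyme and 4 lower, against 7.98% of all genes lower and 11.9% in either direction. Hoxc10 had 11.61, 11.66, 11.66, 10.8 and 11.35 in the vesicle, against 12.29 to 14.52 (median 13.38) in the mesenchyme, and fell by 1.94 (SE 0.42, adjusted p = 0.00176, limma). Hoxc4 had 10.49, 10.21, 11.08, 11.79 and 10.94 in the vesicle, against 12.1 to 13.53 (median 12.85) in the mesenchyme, and fell by 2.004 (SE 0.57). Neither gene overlapped between the groups.

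Hoxb1 and Hoxd13 fell by 2.33 (SE 0.52) and 2.72 (SE 0.70), but single vesicle arrays stayed high. Both genes passed the filter mostly through mesenchyme arrays, as given above. Hoxb1 had 6.69, 9.77, 5.68, 10.28 and 6.13 in the vesicle, so that replicates 2 and 4 lay within the mesenchyme range of 9.17 to 11.02. Hoxd13 had 12.6, 9.14, 7.34, 7.89 and 7.14 in the vesicle, against 9.13 to 13.41 in the mesenchyme, with replicates 1 and 2 inside that range. Against the 3 mesenchyme arrays titled laser capture none of the 4 genes was called, with Hoxc10 at -1.11 and Hoxc4 at -2.01. Both components share no title date, and no fit with the date as a term could be had. Interstitium markers summed to 12302 to 90616 in the vesicle and 78453 to 130017 in the mesenchyme, podocyte markers to 1273 to 2403 and 2688 to 10245, and endothelial markers (5 of 5 measured) to 1786 to 6603 and 3019 to 15001. Nephron progenitor markers summed to 8904 to 23193 in the vesicle and 16390 to 59573 in the mesenchyme. Their part in the result was not tested. Hoxa7 missed the threshold: it had 9.59, 8.45, 6.32, 10.75 and 6.31 in the vesicle, against 5.51 to 7.55 in the mesenchyme, all under the filter's threshold (difference 1.91, adjusted p = 0.0602, limma). It was called higher with an offset of 100 (1.45), with array weights (1.70), without the 2 arrays that stand apart (1.91), and without vesicle replicate 3 (2.396) or 5 (2.397) or mesenchyme replicate 1 (2.07) or 2 (2.05). Hoxa9, at 14.89 to 15.8 in the vesicle and 14.6 to 15.49 in the mesenchyme, overlapped between them.

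Along the nephron few members were called. From the renal vesicle to the S-shaped body, Hoxd3 fell: it had 8.36, 7.44, 7.83 and 7.37 in the S-shaped body, against 9.49, 9.25, 11.28, 9.41 and 9.89 in the vesicle, with no overlap (difference -2.11, SE 0.43, adjusted p = 0.00247, limma). Among all genes 1.72% were lower and 4.99% were called in either direction. Hoxa9 stayed at 14.6 to 14.82 in the S-shaped body. Between these components no fit with the date as a term could be had. Without S-shaped body replicate 3 and corpuscle replicate 4 Hoxd3 was at -2.14 (adjusted p = 0.00384, limma). It was not called in a fit of these components alone (adjusted p = 0.0857, limma).

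In the renal corpuscle, Hoxb5 had 6.83, 10.65, 9.29 and 6.13, against 10.73, 11.78, 10.56 and 10.99 in the S-shaped body, and fell by 2.79 (SE 0.59, adjusted p = 0.0211, limma). Corpuscle replicate 2 lay within the range of the S-shaped body, and that array also had the highest nephron progenitor sum of the corpuscle, 36794, against 1640 to 2843 in the others. Among all genes 0.477% were lower and 0.579% were called in either direction. Without the 2 arrays that stand apart, Hoxb2 (-1.91, adjusted p = 0.044) and Hoxb6 (-2.305, adjusted p = 0.00556) were called beside Hoxb5 (-2.25, adjusted p = 0.0265) by limma. The call for Hoxb5 was lost without corpuscle replicate 1 or without S-shaped body replicate 1, 2 or 4. With the date as a fixed term Hoxb5 was not called (adjusted p = 0.952, limma).

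In the proximal tubule, Hoxa9 had 13.26 and 13.71, against 14.75, 14.82, 14.6 and 14.8 in the S-shaped body, and fell by 1.26 (SE 0.40, adjusted p = 0.0382, limma). The groups did not overlap. Of all genes, 4.27% were lower and 9.91% were called in either direction. Leaving out either tubule array ended the call, as did leaving out S-shaped body replicate 1, 2 or 4, and so did scaling to a common median (-1.03) and the date as a fixed term (-1.11). The 2 tubule arrays differed in Hoxd10 (10.04 and 12.8), Hoxc8 (8.48 and 12.07) and Hoxd9 (8.72 and 12.7), and without tubule replicate 2 Hoxd9 (-3.31) and Hoxd10 (-2.19) were called. In the same order their nephron progenitor sums were 6937 and 20794, their macrophage sums 28202 and 8783, and their levels of Six2 8.52 and 13.09. The interstitium sums of these arrays were close, from 78695 to 82344, though single markers of that list went both ways. Foxd1, a gene of stromal progenitors, had 7.37 and 13.38, and Lum had 13.77 and 8.78. The part of such cells was not tested. Without the 2 arrays that stand apart, of which S-shaped body replicate 3 enters here, Hoxa9 was at -1.31 (adjusted p = 0.0409, limma) and Hoxb2 was called too (-1.88, adjusted p = 0.0419, limma).

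Several members had more than 1 probe set, 11 in all, and the one with the highest mean was used. Other probe sets gave the same sign for Hoxa9 and Hoxd8 between bud and mesenchyme (-2.13 and 0.83). Those of Hoxa10 disagreed. Its second probe set had 6.88 to 7.50 in the bud and 5.65 to 8.22 in the mesenchyme, a difference of -0.05, and 11.2 to 12.2 in the medullary interstitium. By that probe set the bud lay within the range of the mesenchyme, and the vesicle was 2.51 above the mesenchyme. With that probe set Hoxa10 also lost its call in the duct against the bud (2.50, adjusted p = 0.0886, limma) and in the interstitium against the duct (2.13, adjusted p = 0.284, limma). The other probe set of Hoxc5 that passed the filter was at -0.485 between bud and mesenchyme. Its bud arrays, at 6.30 to 7.65, lay within the mesenchyme range of 5.65 to 8.82. A second probe set of Hoxd13, which failed the filter, had 5.42 to 5.76 in the bud and 5.42 to 7.03 in the mesenchyme. The probe sets of Hoxa3 gave differences of -0.60 to 0.17 between bud and mesenchyme, with both signs. The single probe set of Hoxb7 alone was at 5.31 to 7.90 over all 37 arrays and failed the filter. A probe set shared by Hoxb8 and Hoxb7, which cannot be given to either, had 8.96 to 11.4 in the tip, 9.74 to 11.3 in the duct, 9.74 to 10.5 in the bud and 7.91 to 9.76 in the mesenchyme. Over all 37 arrays the highest values were 7.74 for Hoxa13, 7.43 for Hoxb13, 7.98 for Hoxc13 and 7.71 for Hoxd12.

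Genes that work with Hox proteins were described from lists. Of 8 tested TALE cofactors, homeodomain proteins that bind DNA with Hox proteins, 3 fell in the bud against the mesenchyme and none rose, against 4.07% and 4.08% of all genes. Meis1 averaged 8.44 ± 0.47 in the bud (SD, n = 4) and 13.72 ± 0.41 in the mesenchyme (SD, n = 8), and fell by 5.29. Meis2 fell by 5.24 and Pknox2 by 3.00. In the tip and duct against the bud, Meis1 rose by 2.63 and 2.56 and Meis2 by 3.49 and 3.38, while Pbx4 fell by 1.94 and 2.33. Among all genes 2.04% rose in the tip, of 4.25% called in either direction, and 4.12% in the duct, of 10.2% called. In the renal vesicle against the mesenchyme 4 fell, against 7.98% of all genes, namely Meis1 (-1.85), Meis2 (-1.30), Meis3 (-1.55) and Pknox2 (-1.86).

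Of 7 tested partners and targets of Hox11 proteins, 6 fell in the bud, against 4.07% of all genes: Eya1 (-5.48), Six2 (-3.83), Gdnf (-5.27), Itga8 (-4.81), Wt1 (-4.37) and Sall1 (-4.84). Gdnf is the ligand that draws out the bud, and Itga8 the integrin chain on the mesenchyme that acts upstream of it. In the tip 4 rose (2.04% of all genes), and these rose in the duct too (4.12% of all genes): Eya1 (3.84 and 3.50), Itga8 (4.41 and 4.55), Wt1 (2.24 and 3.02) and Sall1 (4.97 and 4.29). These genes are known from the mesenchyme and the early nephron. Eya1 is itself 1 of the 6 nephron progenitor markers, so their sum is not separate from it. Six2, of the same list, had 9.59 to 9.91 in the tip and 9.32 to 10.23 in the duct, against 9.12 to 9.81 in the bud, with overlap in both. In the S-shaped body against the vesicle, with S-shaped body replicate 3 included, Eya1 fell by 4.23 and Osr1 by 2.76, against 1.72% of all genes. In the interstitium against the mesenchyme Eya1 (-3.28), Six2 (-3.38) and Gdnf (-3.66) fell, against 6.82% of all genes.

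Of 20 tested regulators of Hox clusters, Cdx1 rose in the bud against the mesenchyme (1.60, with overlap) and Aldh1a2, which makes retinoic acid, fell by 4.42. These were 1 of 20 in each direction, against 4.08% and 4.07% of all genes. In the tip and duct against the bud, Aldh1a2 rose by 2.49 and 2.73 and Cdx1 fell by 1.90 and 2.12. The Polycomb genes Bmi1 (1.46) and Phc2 (1.12) rose in the tip. The Polycomb gene Cbx2 fell by 1.52 in the tip and 1.56 in the duct against the bud. In the duct Phc1 and Ezh2, also Polycomb genes, fell by 1.57 and 1.38. So 3 of the 20 rose and 2 fell in the tip, where 2.04% of all genes rose and 4.25% were called in either direction. In the duct 1 rose and 4 fell, where 4.12% rose and 10.2% were called. From the mesenchyme to the interstitium 1 rose and 4 fell, against 4.67% and 6.82% of all genes. From the S-shaped body to the proximal tubule 4 fell, against 4.27%. Of the 11 neighbours outside the clusters, 1 fell in the bud against the mesenchyme (4.07% of all genes), Evx1 (-1.48, with overlap), which adjoins HoxA. In the duct against the bud 1 fell, Skap1 (-2.90), a neighbour of HoxB, where 10.2% of all genes were called in either direction. In the vesicle against the mesenchyme 4 of the 11 fell, namely Evx1 (-1.56), Skap2 (-1.14), Calcoco1 (-1.48) and Smug1 (-2.06), against 7.98% of all genes. In the interstitium against the mesenchyme Evx1 alone of the 11 fell (-1.90), against 6.82% of all genes.

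Likeness between members was described by Pearson's correlation of the 9 component means, which share their arrays and normalization. Genes next to each other among the tested members of a cluster had a median of 0.72 over 24 pairs, from -0.13 to 0.95. Pairs farther apart in a cluster had a median of 0.28 (61 pairs), pairs of 1 paralog number in different clusters -0.05 (23 pairs) and all other pairs -0.02 (270 pairs). The lowest value among neighbours was that of Hoxd9 and Hoxd10. Hoxa10 was most like Hoxc8 (0.96), Hoxd10 (0.95) and Hoxa11 (0.95). Of the pairs between Hoxd10 and Hoxd11 and between Hoxd1 and Hoxd3, the values were 0.93 and 0.85. With 9 points, and the bud low in many of them, such values describe these components only.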

How the data were processed

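RNA of 37 pooled tissue samples was amplified in 2 rounds and hybridized to 1 Affymetrix array each, per the labels. The deposited values are signal intensity from the GCOS software, per the submitters' processing notes; its version is not given in the sources used here. All deposited arrays had the same 2% trimmed mean, 1500.0, which shows scaling before deposit. Median array signal was 127 to 334.

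From the deposited intensity, 34.62 (the 20th percentile of all values) was added, log2 was taken and arrays were quantile normalized. The offset makes differences of dim genes smaller. Probe sets above 7.89 in at least 2 arrays were kept, and the probe set with the highest mean stood for its gene. Gene symbols came from GEO's platform annotation. Of 45101 probe sets, 34945 had 1 gene, 932 several and 9160 none, and 64 were controls. Limma 3.58.1 (R 4.3.3) was fitted to all arrays with 9 component means and an intensity trend, for 10 comparisons and an F test, and was tested on simulated data. Samples were grouped by source name. Members and lists were chosen with earlier results of these data known; every member may be named, and other genes come from the lists. Alternatives were other offsets, scaling, filters and probe sets, array weights, fits of the compared components, title date or number as terms, collection method, and leaving out arrays.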

Additional observations from a re-analysis of the deposited data

Results flagged for a closer look

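In groups of 4 to 10 arrays, a member's highest or lowest array was compared with the rest of its group by Dixon's ratio. Of 168 groups examined 8 held such an array, and chance alone gives about 1 in 20. Hoxa3 was low in medullary interstitium replicate 4 (8.18, against 8.93 to 9.03 in the others). Hoxa9 was high in renal vesicle replicate 4 (15.8, others 14.89 to 15.15). Hoxb3 was high in S-shaped body replicate 1 (12.86, others 11.49 to 11.68). Hoxc8 was high in S-shaped body replicate 3 (12.59, others 10.12 to 10.35), the array with high podocyte, proximal tubule and interstitium markers. Hoxd1 was high in ureteric bud replicate 3 (11.69, others 10.84 to 10.87). Hoxd13 was high in renal corpuscle replicate 1 (7.44, others 5.47 to 5.72), near the low end of the scale. In metanephric mesenchyme replicate 8, Hoxc5 (12.62, others 10.62 to 11.44) and Hoxd11 (10.44, others 8.52 to 9.42) were both high. The causes were not tested.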

How the results depend on the processing

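Of 1126 values of the 50 calls outside the fit that used title dates, 1036 kept their call, 90 lost it and none reversed. That date term is weak, because most components compared share few dates or none. It left 1 called member for bud against mesenchyme and for interstitium against duct, and 0 for corpuscle and tubule against S-shaped body, interstitium against mesenchyme, and tip and duct against bud. It reversed Hoxa10 in interstitium against mesenchyme (-0.26), Hoxc8 (-1.13), Hoxc9 (-0.15) and Hoxd10 (-0.32) in tip against bud, and Hoxc8 (-0.88), Hoxc9 (-0.37) and Hoxd10 (-0.12) in duct against bud. In these comparisons the dates are linked only through the 2 proximal tubule arrays. Those arrays differed in Hoxc8 (8.48 and 12.07), Hoxc9 (7.02 and 9.61) and Hoxd10 (10.04 and 12.8). As a random block (correlation 0.0596) the date changed no count by 1.5 times.

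With only mesenchyme titled laser capture, 0 were called in vesicle against mesenchyme and 3 in interstitium against mesenchyme. In S-shaped body against vesicle, 2 were called without probe sets of suffix _x_at or _s_at and 0 in a fit of the compared components. In corpuscle against S-shaped body, 3 were called without the 2 arrays that stand apart and 0 in a fit of the compared components. In tubule against S-shaped body, 0 were called with median scaling, array weights or only the compared components, and 2 with no filter, the probe set of largest variance or without the 2 arrays. In tip against bud, 13 were called with array weights and 12 with only the compared components. In duct against bud, 12 were called with median scaling and 14 with array weights. In tip against duct, 1 was called with array weights. Median scaling split bud against mesenchyme into 5 that rose and 13 that fell. By the probe set of largest variance Hoxa10 was at -0.05 in bud against mesenchyme. Counts of members under other settings, here and above, stand without the share of all genes called in the same setting. They are therefore not read as particular to Hox genes. The causes were not tested.

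Leaving out single arrays gave 14 to 16 calls in bud against mesenchyme, 4 to 6 in vesicle against mesenchyme, 1 in S-shaped body against vesicle, 0 to 2 in corpuscle and in tubule against S-shaped body, 5 to 10 in interstitium against mesenchyme, 4 to 6 in tip against bud, 4 to 8 in duct against bud, 0 in tip against duct, 1 to 8 in interstitium against duct and 21 to 25 in the F test. Where 1 tubule array remained, it was assumed to vary like the other groups.

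With the title number as a replicate block, 14 members were called in bud against mesenchyme, 3 in vesicle against mesenchyme, 2 in S-shaped body against vesicle, 8 in tip against bud and 9 in interstitium against mesenchyme. The numbers do not pair the arrays: over 99 pairs of the same number the median correlation of deviations was 0.007. No fit with the date as a term could be had for comparisons with the renal vesicle or the F test. Dim probe sets limit what can be said of Hoxa13, Hoxb7, Hoxb13, Hoxc13 and Hoxd12, and of the size of differences of Hoxb1, Hoxc8, Hoxc9 and Hoxd11 from the bud. In part this holds for Hoxa10, Hoxa11, Hoxc10, Hoxd10 and Hoxd13 too, which had some bud arrays under the filter's threshold. It also holds for Hoxb1 and Hoxd13 in the interstitium.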

Other observations

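Antisense transcripts of the clusters, chosen after their values were seen, are no members. Hoxa11os had 9.2, 8.91 and 10.4 in the tip and 11.74, 8.59 and 8.83 in the collecting duct, against 7.42, 7.49, 6.69 and 7.51 in the bud. It fell by 3.67 in the bud against the mesenchyme and rose by 2.23 in the tip and 2.45 in the duct against the bud. Hoxd3os1, by its brighter probe set, had 14.53, 15.23 and 13.88 in the tip and 14.62, 14.71 and 13.72 in the duct, against 9.65, 10.05, 10.14 and 9.32 in the bud. It rose by 4.75 (SE 0.90, adjusted p = 0.00121, limma) in the tip and by 4.56 (SE 0.90, adjusted p = 0.000827, limma) in the duct, while Hoxd3 itself was not called in either.

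Along the nephron Hoxd3os1 rose by 4.70 (SE 0.79) in the S-shaped body against the renal vesicle, where Hoxd3 fell, and fell by 5.15 (SE 1.02) in the proximal tubule against the S-shaped body. A second probe set of Hoxd3os1 did not follow it: it had 6.54 to 7.24 in the tip and 6.51 to 7.53 in the duct, against 7.48 to 8.37 in the bud. Both transcripts overlap or adjoin Hox genes, so which transcript each probe set reads was not tested here. Hoxb5os was called in none of the 10 comparisons.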
